A study of Mus musculus with 12 samples.

Results

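The genes examined here mark leukocytes and Langerhans cells, and the data are chromatin accessibility in cells sorted from mouse squamous cell carcinomas of the skin and from normal skin epithelium. They are 10 genes: Ptprc, Dock2, Cd207, Cd3e, Csf1r, Tyrobp, Cd68, Cd74, H2-Aa and Itgam. A peak was taken as a member when one of these was its nearest protein-coding gene and the peak lay inside the gene's mm10 span or within 50 kb of it. This gave 63 of the 177240 peaks in the deposited list, all of which passed the filter on low counts. Ptprc had 16 peaks, Dock2 17, Cd3e, Csf1r and Itgam 6 each, H2-Aa 4, Cd74 3, Cd207 and Cd68 2 each, and Tyrobp 1. In or across the gene spans lay 39 of the peaks, and 24 lay outside.

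The assay was ATAC-seq: the transposase Tn5 inserts adapters where chromatin is open, and the sequenced ends map those places. The 6 samples form 5 groups, all from female mice of mixed strain. The Lgr5 Epcam- group (1 sample) and the Lgr5 Epcam+ group (2 samples) came from Lgr5CreER mice that also carried p53fl/fl and Rosa-YFP+/+, and in which the Cre recombinase is driven from Lgr5, a gene of hair follicle stem cells. The K14 Epcam+ group (1 sample) came from K14CreER mice with those same p53fl/fl and Rosa-YFP+/+ alleles, in which Cre is driven by the keratin 14 promoter of basal keratinocytes. The labels give the cell type as hair follicle for the Lgr5 tumours and interfollicular epidermis for the K14 tumour. All tumour samples share the conditional p53 allele and the YFP reporter. The hair follicle (HF) and the interfollicular epidermis (IFE) were 1 wild-type sample each. Cells were sorted with antibodies to CD45, CD31 and CD140a, all in the same colour, and to Epcam in another; the labels do not say which gate was kept. CD45 is the product of Ptprc. No label gives ages or says that the 2 Lgr5 Epcam+ samples came from separate animals, so a p-value reflects how far these particular samples differed, and that spread may be technical.

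Epcam and Krt14, an epithelial surface protein and a basal keratin, served as a check of the sorts. The peaks of Epcam stood 3.62-fold above the background outside peaks in Lgr5 Epcam- cells, 27.2-fold and 22.2-fold in the Lgr5 Epcam+ samples, 17.7-fold in K14 Epcam+ cells, 4.55-fold in HF and 5.30-fold in IFE. Krt14 stood at 3.63-fold in Lgr5 Epcam- cells, 24.2-fold and 20.8-fold in Lgr5 Epcam+ cells, 13.3-fold in K14 Epcam+ cells, 5.90-fold in HF and 8.71-fold in IFE.

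Ptprc encodes CD45, a phosphatase carried by nucleated blood cells, and Dock2 an activator of Rac in migrating leukocytes. Cd207 encodes langerin, the lectin that defines the Birbeck granules of Langerhans cells, the antigen-presenting cells that normally sit among the keratinocytes of the epidermis. Cd3e encodes a chain of the T cell receptor complex. Csf1r is the receptor that macrophages and Langerhans cells need for survival, Tyrobp a signalling adaptor of myeloid and natural killer cells, Cd68 a lysosomal protein of macrophages, and Itgam the integrin CD11b of myeloid cells. H2-Aa encodes a chain of an MHC class II molecule and Cd74 the invariant chain that guides class II molecules to the compartment where peptides are loaded. In leukocytes that express them these genes are open at their starts and at nearby enhancers, while in a keratinocyte most of them are silent. Bulk accessibility cannot tell a few cells with an open locus from many cells in which it is slightly open.

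Each level below is given as counts per kb of the peak divided by the counts per kb outside all peaks in the same library, called the level over background, so that 1 means no more reads than elsewhere in the genome. Ratios between groups were instead computed from counts scaled by TMM (a trimmed mean that sets the typical peak to no change) and are given in log2. The libraries held between 32086654 (HF) and 62941406 (Lgr5 Epcam+ sample 1) counts in peaks. The share of all counts that fell in peaks moved with the tumour label: it was 34.4% in Lgr5 Epcam- cells, 47.2% and 41.9% in Lgr5 Epcam+ cells, 35.6% in K14 Epcam+ cells, 24.0% in HF and 29.6% in IFE. A locus at background in every library therefore has a lower scaled count in tumours, and for the tested comparisons the counts of called member peaks and member genes are also given with libraries scaled to the counts outside peaks. On chromosomes 15 to X the single-end run of K14 Epcam+ fell short of its paired-end run by 0.85 on the log2 scale, so for Csf1r, Cd74 and H2-Aa the paired-end runs alone were used.

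A peak near the gene start was less common among members than among all genes, as far as starts were listed. A start was listed for 7 members. Of these 7, 3 had a peak within 1 kb of it, Cd68, H2-Aa and Itgam, whereas 70.8% of the 17491 genes with a listed start did. The peaks of Cd68 and H2-Aa lay over the start, and that of Itgam 357 bp from it. Ptprc, Dock2, Cd207 and Cd3e had none. The peaks closest to their starts lay 4486 bp away for Ptprc, 6512 bp for Dock2, 3734 bp for Cd207 and 3829 bp for Cd3e. In 7 further lists of leukocyte genes (pan-leukocyte, MHC class II, dendritic, macrophage and neutrophil, T and NK, B and mast cell genes, 72 genes in all), 21 of 52 listed starts, 40.4%, had a peak within 1 kb. For Csf1r, Cd74 and Tyrobp no start was at hand. A peak crossed the left end of the Csf1r span and another that of Cd74, and the only peak of Tyrobp lay 18544 bp left of its span.

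The level of the member peaks was modest in every sort. Its median over the 63 peaks was 2.78 in Lgr5 Epcam- cells, 3.27 and 3.37 in Lgr5 Epcam+ cells, 4.07 in K14 Epcam+ cells, 1.73 in HF and 2.48 in IFE. The median over all 177240 peaks was 3.47, 4.57, 4.02, 3.64, 2.01 and 2.49 in the same order. K14 Epcam+ was the library in which the members' median lay above that of all peaks. Under 2-fold over background lay 28 of the 63 peaks in Lgr5 Epcam- cells, 18 and 14 in Lgr5 Epcam+ cells, 10 in K14 Epcam+ cells, 40 in HF and 25 in IFE. By scaled count, IFE held the highest value at 18 of the 63 peaks (28.6%, against 23.0% of all peaks) and K14 Epcam+ at 16 (25.4%, against 9.84% of all peaks). Lgr5 Epcam- cells held it at 12 of 63 (against 22.9%), the Lgr5 Epcam+ samples at 2 and 10 (3.17% and 15.9%, against 18.8% and 12.2%) and HF at 5 (7.94%, against 13.3%). These shares describe single libraries and were not tested. Which sort was highest depended on the gene: IFE at 12 of 17 Dock2 peaks, Lgr5 Epcam- at 4 of 6 Csf1r peaks, HF at all 3 Cd74 peaks, and K14 Epcam+ at 4 of 6 Itgam peaks.

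**Figure D1:**
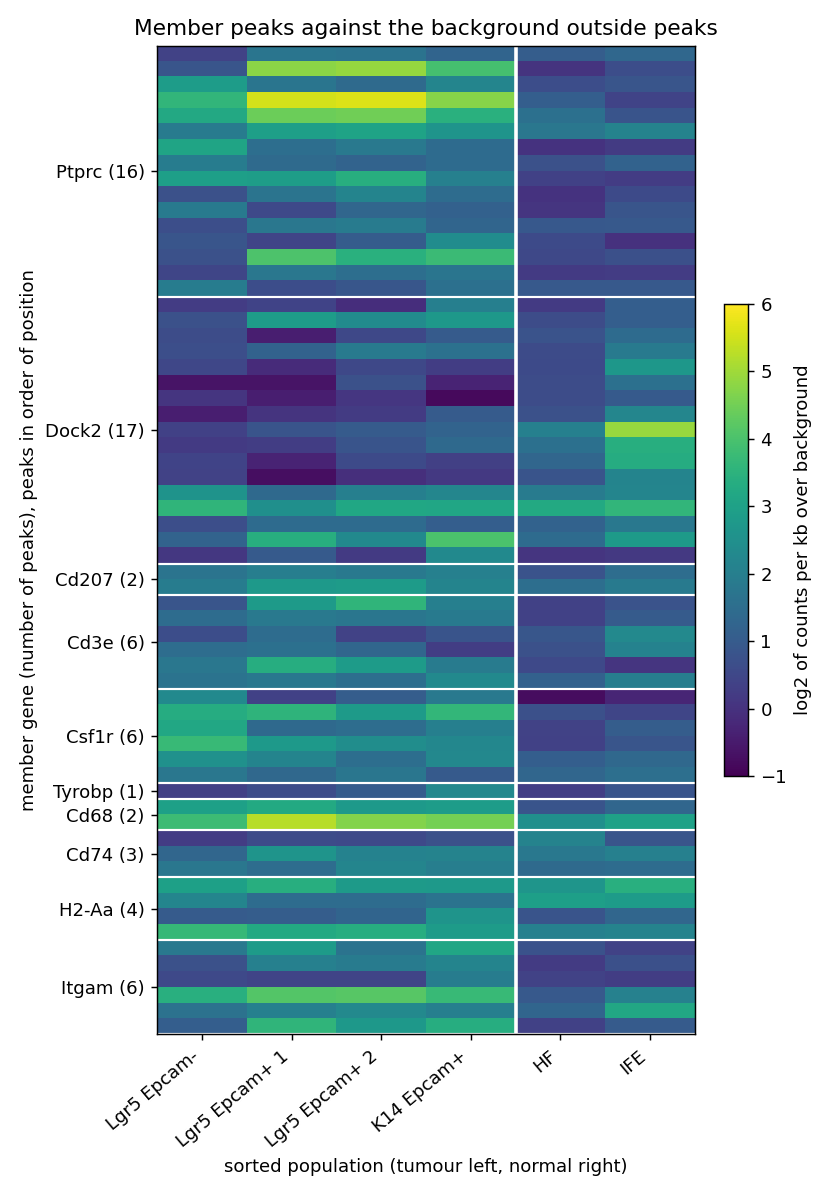
Level over background of the 63 member peaks (rows, grouped by gene and in order of position) in the 6 sorted samples (columns, tumour samples left of the white line and normal samples right of it); colour gives log2 of counts per kb over the counts per kb outside peaks. Among the highest values are a Ptprc peak in the Lgr5 Epcam+ samples (46.9-fold and 49.8-fold), the Cd68 start peak in Lgr5 Epcam+ sample 1 (38.2-fold) and a Dock2 peak in IFE (30.5-fold).

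Against the normal epithelia, the 3 Epcam+ tumour samples (both Lgr5 Epcam+ samples and K14 Epcam+) were higher at 12 member peaks and lower at 12 (edgeR's quasi-likelihood test with Benjamini-Hochberg adjustment over all peaks, adjusted p under 0.05). Of all peaks tested, 15% were called higher and 15.3% lower, so 12 of 63 members in each direction is close to the background. The 12 higher peaks belonged to Ptprc (5), Cd3e (2), Cd68 (2), Itgam (2) and Csf1r (1), and the 12 lower ones to Dock2 (9), Cd3e, Cd74 and H2-Aa (1 each). The higher peaks had a median level over background of 14.3 and 11.5 in the Lgr5 Epcam+ samples and 11.6 in K14 Epcam+, against 1.54 in HF and 1.68 in IFE. The lower peaks had a median of 1.13, 1.48 and 1.71 in those tumours, against 2.17 in HF and 5.75 in IFE. With libraries scaled to the counts outside peaks, a choice made after seeing the data that moves the median log2 ratio of all peaks to 0.78, 20 member peaks were called higher and 6 lower, against 59271 and 10260 of all peaks. These included all 12 higher calls and 6 of the 12 lower ones. All 3 tumour values lay above both normal values at 19 peaks (27.2% of all peaks) and below both at 21 (29.3% of all peaks). Without Lgr5 Epcam+ sample 1 the count fell to 5 higher and 6 lower, against 15716 and 11023 of all peaks. Without IFE, which leaves HF alone as the normal sample, fewer peaks were called in each direction among members and over all peaks.

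**Figure D2:**
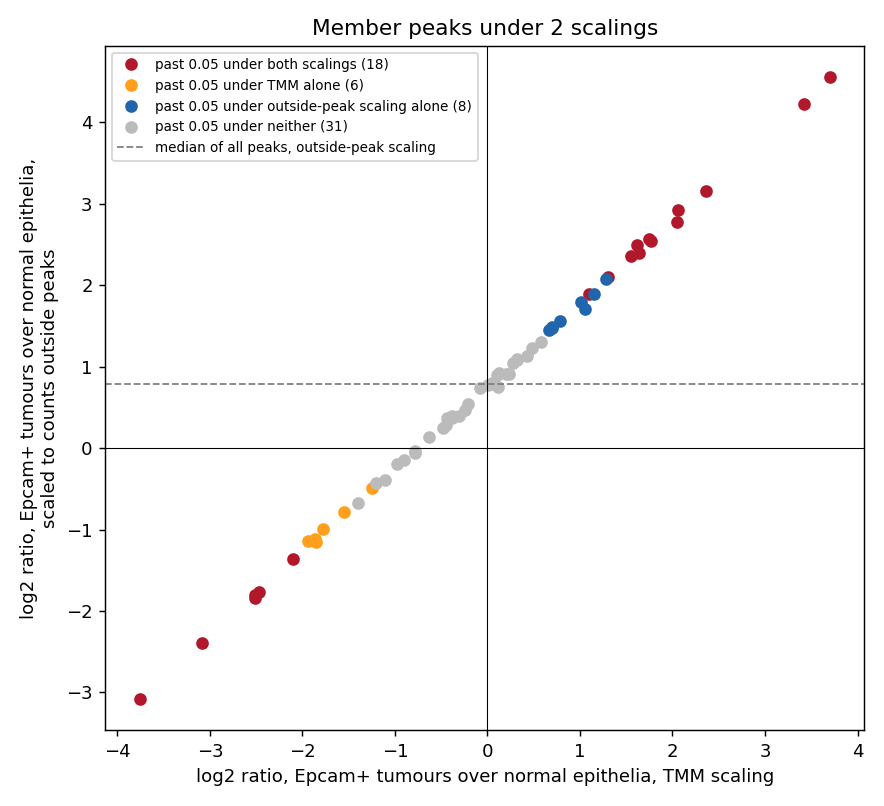
Log2 ratio of Epcam+ tumours over normal epithelia for each of the 63 member peaks under TMM scaling (horizontal) and with libraries scaled to counts outside peaks (vertical); colours show which calls passed an adjusted p of 0.05, and the dashed line is the median of all peaks. The second scaling shifts the points up: 18 calls were made under both, 6 under TMM alone and 8 under the second alone.

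Within the Lgr5 line, Lgr5 Epcam+ tumours exceeded HF at 6 member peaks and were lower at 6 (edgeR, adjusted p under 0.05), where the background was 9.3% of all peaks higher and 7.41% lower. Scaled to counts outside peaks, 16 member peaks were called higher and 1 lower, against 53308 and 4975 of all peaks. All 6 higher calls were among them, and the 1 lower call, an H2-Aa peak, was among the 6 lower ones. Lgr5 Epcam- cells were higher than Lgr5 Epcam+ cells at 2 member peaks, against 6.57% of all peaks, and lower at 3, against 5.45%. Under the second scaling 1 member peak was called higher, the same Csf1r peak, and 5 lower, which included the 3 lower calls; over all peaks it called 8859 higher and 18439 lower. These comparisons use the same Lgr5 Epcam+ samples, and each lone sample is assumed to vary as that pair does.

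Summed over each gene's peaks, Ptprc and Cd68 rose and Dock2 fell in Epcam+ tumours against normal epithelia, where 14.6% of genes rose and 9.07% fell. Ptprc had 111 and 131 CPM (scaled counts) in the Lgr5 Epcam+ samples and 99.9 in K14 Epcam+, against 43.7 in HF and 38.8 in IFE. Its log2 ratio was 1.47 ± 0.26 (SE, n = 3 and 2, edgeR adjusted p = 0.000173). Cd68 had 33.4, 26.3 and 27.3 CPM in the same tumours, against 11.1 in HF and 13.1 in IFE, a log2 ratio of 1.26 ± 0.29 (edgeR adjusted p = 0.00191). Dock2 had 31.1, 36.1 and 60.0 CPM in the tumours, against 65.9 in HF and 146 in IFE, a log2 ratio of -1.32 ± 0.34 (edgeR adjusted p = 0.0129). The Dock2 ratio was -0.64 without IFE (edgeR adjusted p = 0.16), -1.14 without Lgr5 Epcam+ sample 1 (edgeR adjusted p = 0.0687), and -0.61 when scaled to counts outside peaks (edgeR adjusted p = 0.181). Under that scaling 4 member genes were called higher and 0 lower, against 7677 and 281 of all genes: Ptprc and Cd68, and also Csf1r (log2 ratio 1.46, edgeR adjusted p = 0.00444) and Itgam (1.45, edgeR adjusted p = 0.0038). Lgr5 Epcam+ tumours against HF alone gave a call for Ptprc, 1.47 ± 0.33 (SE, edgeR adjusted p = 0.0241), where 6.32% of genes rose. Scaled to counts outside peaks, 5 member genes were called higher (Ptprc, Cd68, Itgam, Csf1r and Cd3e) and 0 lower, against 10574 and 132 of all genes. With peaks within 10 kb of the gene, this Ptprc ratio was 0.75 (edgeR adjusted p = 0.184). All 3 tumour values lay above both normal values for 4 of the 10 genes, Ptprc, Csf1r, Cd68 and Itgam (28.6% of all genes), and below both for 3, Dock2, Cd74 and H2-Aa (21.9% of all genes). These levels are under TMM scaling; scaled to counts outside peaks, the log2 ratio of Epcam+ tumours over normal epithelia was 0.22 for Cd74 and 0.09 for H2-Aa, and neither gene passed under either scaling. Where 1 sample was set against 1, a gene was called at a log2 ratio of at least 1, with 0.5 or more in each run; on chromosomes 15 to X, which hold Csf1r, Cd74 and H2-Aa, the paired-end run alone decided. K14 Epcam+ against IFE then gave Ptprc (1.36), Csf1r (1.14) and Cd68 (1.06) higher and Dock2 (-1.28) lower, against 9.38% of genes higher and 8.5% lower. The single-end run, not used for Csf1r, gave it a log2 ratio of -0.36. Lgr5 Epcam- against HF gave Csf1r higher (1.72, 95% counting interval 1.49 to 1.97), against 11.7% of genes higher and 7.32% lower. HF against IFE gave Dock2 lower (-1.15, 95% counting interval -1.23 to -1.07), against 1.73% of genes higher and 3.25% lower. No member gene passed between Lgr5 Epcam- and Lgr5 Epcam+ cells, where 2.1% of genes rose and 2.47% fell; 1 had an unadjusted p under 0.05, and DESeq2 and the second scaling each called 0.

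Of the 5 Ptprc peaks that rose in Epcam+ tumours, 4 lay outside the gene and 1 inside it, as the plot of peaks by distance shows. The strongest lay beyond the 3′ end, at chr1:138038692-138039789 (23070 bp past the end of the span). Its level over background was 12.2 in Lgr5 Epcam- cells, 46.9 and 49.8 in Lgr5 Epcam+ cells, 26.5 in K14 Epcam+ cells, 2.14 in HF and 1.33 in IFE. The Epcam+ tumours did not overlap the normal samples, and the log2 ratio was 3.70 ± 0.43 (SE, edgeR adjusted p = 0.000608). A second peak, chr1:138017224-138018276, was near background in Lgr5 Epcam- cells, 1.79, and stood at 27.5 and 29.9 in Lgr5 Epcam+ cells, 15.4 in K14 Epcam+ cells, 1.03 in HF and 1.57 in IFE. It fell in Lgr5 Epcam- against Lgr5 Epcam+ cells by 3.57 on the log2 scale (SE 0.66, edgeR adjusted p = 0.00483), while the first fell by 1.56 (SE 0.42, edgeR adjusted p = 0.0257). Another peak, chr1:138179791-138180816, lay 4035 bp upstream of the span. It stood at 1.65 in Lgr5 Epcam- cells, 16.6 and 11.0 in Lgr5 Epcam+ cells, 13.6 in K14 Epcam+ cells, 1.42 in HF and 1.64 in IFE. The log2 ratio of Lgr5 Epcam- over Lgr5 Epcam+ cells was -2.61 ± 0.67 (SE, edgeR adjusted p = 0.0224), and that of Epcam+ tumours over normal epithelia 2.36 ± 0.42 (SE, edgeR adjusted p = 0.00278). The next protein-coding gene on the 3′ side of Ptprc, Nr5a2, lies 1102410 bp from its span. The annotated lncRNA Gm34353 lay 7446 bp from chr1:138017224-138018276, which is 44583 bp from the Ptprc span, and 28914 bp from chr1:138038692-138039789. The pseudogene Gm18667 lay 3286 bp from the upstream peak chr1:138179791-138180816. Which gene these peaks serve was not tested.

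The order of the sorts varied between Ptprc peaks, both outside and inside the gene. By scaled count, Lgr5 Epcam- cells were highest at 5 of the 16 peaks and Lgr5 Epcam+ sample 2 at 7. Outside the gene, chr1:138022459-138023816 stood at 7.34 in Lgr5 Epcam- cells, against 3.27 and 2.69 in Lgr5 Epcam+ cells. Its log2 ratio between these groups was 1.74 (edgeR adjusted p = 0.0541) and did not pass. The peaks that follow lay inside the gene. At chr1:138126573-138127783 Lgr5 Epcam- cells had the highest level, 8.52, against 2.87 and 3.57 in Lgr5 Epcam+ cells, 2.72 in K14 Epcam+ cells, 1.02 in HF and 1.16 in IFE. Its log2 ratio of Lgr5 Epcam- over Lgr5 Epcam+ cells was 1.82 ± 0.56 (SE, edgeR adjusted p = 0.0476), and the call was lost under scaling to counts outside peaks (edgeR adjusted p = 0.103), with DESeq2 (adjusted p = 0.106) and with the single-end run alone (edgeR adjusted p = 0.0595). At chr1:138135974-138137122 all tumours were above the normal samples, with 7.69 in Lgr5 Epcam- cells, 7.48 and 10.4 in Lgr5 Epcam+ cells, 4.16 in K14 Epcam+ cells, 1.27 in HF and 1.19 in IFE. Epcam+ tumours exceeded normal epithelia there by a log2 ratio of 1.74 ± 0.46 (SE, edgeR adjusted p = 0.0163; 0.0887 without IFE and 0.0529 without Lgr5 Epcam+ sample 1). At chr1:138158336-138159336 K14 Epcam+ stood apart with 5.31, against 1.79 in Lgr5 Epcam- cells, 1.36 and 2.06 in Lgr5 Epcam+ cells, 1.48 in HF and 0.995 in IFE. Of the other 4 peaks inside the gene, none passed a test under TMM scaling. Scaled to counts outside peaks, chr1:138144170-138145170 passed in Epcam+ tumours over normal epithelia (log2 ratio 1.48, edgeR adjusted p = 0.0182) and in Lgr5 Epcam+ tumours over HF (1.92, edgeR adjusted p = 0.0201).

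**Figure D3:**
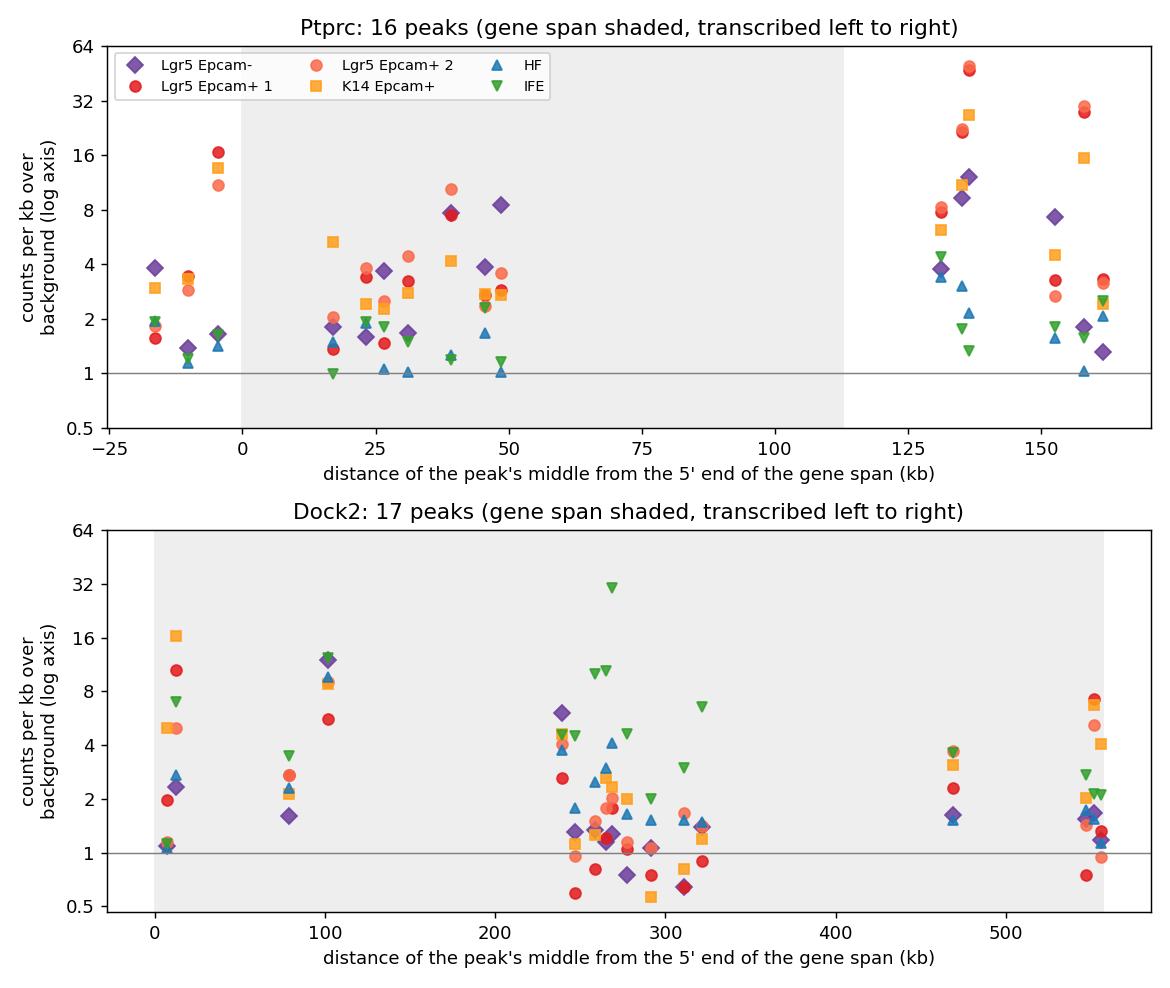
Level over background (log axis) of each Ptprc and Dock2 peak against its distance in kb from the 5′ end of the gene span, with the span shaded; symbols give the 6 samples. At Ptprc the Epcam+ tumours reach 26.5 to 49.8 beyond the 3′ end and 11.0 to 16.6 just upstream, and at Dock2 the IFE sample reaches 30.5 in the middle of the gene.

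Dock2 went the other way, and its peaks in the middle of the gene were highest in IFE. All 17 peaks lay inside its 557 kb span. The strongest, chr11:34514931-34516164, overlapped the annotated lncRNA Gm39681. Its level was 1.27 in Lgr5 Epcam- cells, 1.77 and 2.02 in Lgr5 Epcam+ cells, 2.33 in K14 Epcam+ cells, 4.13 in HF and 30.5 in IFE. Every tumour value lay below both normal values, and the log2 ratio of Epcam+ tumours over normal epithelia was -3.76 ± 0.63 (SE, edgeR adjusted p = 0.00225). HF was lower than IFE by a log2 ratio of -2.60 (95% counting interval -2.83 to -2.40, 1 sample each, no test). This was the member peak called lower in HF against IFE by the rule of size (a log2 ratio of at least 2, with 1 or more in each run, or in the paired-end run alone on chromosomes 15 to X), which called 1.7% of all peaks higher and 0.735% lower. At chr11:34524632-34525952 the level was 1.33 in Lgr5 Epcam- cells, 0.81 and 1.5 in Lgr5 Epcam+ cells, 1.26 in K14 Epcam+ cells, 2.49 in HF and 10.1 in IFE, a log2 ratio of -3.09 ± 0.54 (SE, edgeR adjusted p = 0.00275). At chr11:34518203-34519233 it was 1.15 in Lgr5 Epcam- cells, 1.22 and 1.77 in Lgr5 Epcam+ cells, 2.61 in K14 Epcam+ cells, 2.98 in HF and 10.4 in IFE. The same 3 peaks and chr11:34536620-34537817 were also called lower in Lgr5 Epcam+ tumours than in HF, by 2.0 to 2.19 in log2, and none of these 4 calls was kept under scaling to counts outside peaks (edgeR adjusted p from 0.108 to 0.203). K14 Epcam+ against IFE gave 8 member peaks lower by the rule of size, 7 of them in Dock2, against 5.92% of all peaks. The largest of the 7 was again chr11:34514931-34516164, with a log2 ratio of -4.16 (95% counting interval -4.54 to -3.87).

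Near the Dock2 start the pattern changed. At chr11:34770661-34771937, 11968 bp inside the gene, K14 Epcam+ was highest with 16.3, against 2.33 in Lgr5 Epcam- cells, 10.6 and 4.97 in Lgr5 Epcam+ cells, 2.73 in HF and 6.97 in IFE. At chr11:34776393-34777393, the Dock2 peak closest to the start, K14 Epcam+ reached 4.99 and no other sample exceeded 1.97. A peak open in every sort, chr11:34681508-34682557, had 12 in Lgr5 Epcam- cells, 5.62 and 8.99 in Lgr5 Epcam+ cells, 8.84 in K14 Epcam+ cells, 9.62 in HF and 12.3 in IFE. Its call of lower in Epcam+ tumours (log2 ratio -1.24 ± 0.40 SE, edgeR adjusted p = 0.0373) was lost when scaled to counts outside peaks (edgeR adjusted p = 0.439) and without any 1 of the 5 samples (edgeR adjusted p from 0.0563 to 0.125). Without IFE, 4 more of the 9 Dock2 calls were lost, with edgeR adjusted p from 0.0686 to 0.186.

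Csf1r had its highest level in Lgr5 Epcam- cells. Summed over its peaks it had 40.9 CPM in Lgr5 Epcam- cells, 18.5 and 16.4 in Lgr5 Epcam+ cells, 27.2 in K14 Epcam+ cells, 12.4 in HF and 12.3 in IFE. The log2 ratio of Lgr5 Epcam- over Lgr5 Epcam+ cells was 1.23 ± 0.41 (SE, edgeR adjusted p = 0.127) and did not pass. Peak by peak, chr18:61106461-61107461 inside the gene had 9.17 in Lgr5 Epcam- cells, 2.65 and 2.83 in Lgr5 Epcam+ cells, 4.03 in K14 Epcam+ cells, 1.29 in HF and 2.10 in IFE. It passed against Lgr5 Epcam+ cells with a log2 ratio of 2.18 ± 0.61 (SE, edgeR adjusted p = 0.0317). The next peak, chr18:61108126-61109221, had 13.1 in Lgr5 Epcam- cells, 6.96 and 5.42 in Lgr5 Epcam+ cells, 4.77 in K14 Epcam+ cells, 1.29 in HF and 1.78 in IFE (log2 ratio 1.53, edgeR adjusted p = 0.0861). The peak across the left end of the span, chr18:61104955-61106152, was open in all tumours, with 10.1 in Lgr5 Epcam- cells, 11.7 and 7.02 in Lgr5 Epcam+ cells, 12.4 in K14 Epcam+ cells, 1.62 in HF and 1.38 in IFE. Epcam+ tumours exceeded normal epithelia there by a log2 ratio of 2.04 ± 0.48 (SE, edgeR adjusted p = 0.01; 0.0603 without IFE). By the rule of size, 4 of the 5 member peaks higher in Lgr5 Epcam- cells than in HF were Csf1r peaks, with log2 ratios from 2.01 to 2.68 in the paired-end run, which alone decided there. In the unused single-end run the peak chr18:61100986-61101986 had 0.91. That rule called 7.49% of all peaks higher and 6.55% lower in this pair, and the single-sample ratios have no test.

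The neighbour of Csf1r on its left, 20504 bp away, is Pdgfrb, a receptor of fibroblasts and pericytes, and it too was highest in Lgr5 Epcam- cells. Its summed level was 11.6 in Lgr5 Epcam- cells, 4.49 and 3.99 in Lgr5 Epcam+ cells, 5.06 in K14 Epcam+ cells, 1.85 in HF and 1.85 in IFE, and it rose in Lgr5 Epcam- over Lgr5 Epcam+ cells by a log2 ratio of 1.90 ± 0.36 (SE, edgeR adjusted p = 0.0204). Of 8 endothelial genes, none rose or fell in that comparison. Of 8 fibroblast and pericyte genes, 6 rose and none fell, and of 63 genes in the 7 leukocyte lists with peaks, none rose or fell. In that comparison 2.1% of all genes rose and 2.47% fell, so an absence of calls among 63 genes is near that background. The part of fibroblasts, or of the Pdgfrb neighbourhood, in the Csf1r result was not tested.

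Cd68 was open at its start in all sorts and most in the Epcam+ tumours. The peak over the start, chr11:69665736-69666846, had 13.9 in Lgr5 Epcam- cells, 38.2 and 26.2 in Lgr5 Epcam+ cells, 23.2 in K14 Epcam+ cells, 5.61 in HF and 7.96 in IFE. All tumour values exceeded the normal ones, and Epcam+ tumours exceeded normal epithelia by a log2 ratio of 1.30 ± 0.33 (SE, edgeR adjusted p = 0.0131). Without HF the adjusted p was 0.0644, and without Lgr5 Epcam+ sample 1 it was 0.0615 (edgeR). The peak at the other end of the gene, chr11:69663562-69664562, had 7.90 in Lgr5 Epcam- cells, 9.51 and 6.81 in Lgr5 Epcam+ cells, 7.26 in K14 Epcam+ cells, 1.76 in HF and 2.49 in IFE, with a log2 ratio of 1.10 ± 0.38 (SE, edgeR adjusted p = 0.0496). Of 12 other settings, 4 kept that second call, and it was lost without HF, IFE, K14 Epcam+ or Lgr5 Epcam+ sample 1 (edgeR adjusted p from 0.11 to 0.205). The start peak ends 90 bp from the span of Eif4a1, which encodes a broadly used translation initiation factor. The 250 bases before the Cd68 start, on the minus strand at chr11:69666171-69666420 (RefSeq, GRCm38.p6, which is mm10), are shown because this peak lies on them and they hold letters of 2 motifs. Capitals mark TGANTCA, the AP-1 motif, and ATTGG, the CCAAT box that serves as the Y box of class II genes, read on either strand.
Cd68: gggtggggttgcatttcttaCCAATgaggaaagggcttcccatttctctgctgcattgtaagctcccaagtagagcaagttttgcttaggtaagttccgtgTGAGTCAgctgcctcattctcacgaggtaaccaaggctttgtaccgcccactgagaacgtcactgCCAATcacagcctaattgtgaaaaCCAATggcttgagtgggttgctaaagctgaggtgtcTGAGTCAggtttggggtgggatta
The window holds TGANTCA 2 times and ATTGG 3 times. TGANTCA occurred in 6.13% and ATTGG in 35.4% of 21262 RefSeq promoters over the same 250 bases, and the 2 motifs do not overlap here.

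By level over background, H2-Aa was open at its start to much the same degree in every sort. The peak over the start, chr17:34287318-34288452, had 7.89 in Lgr5 Epcam- cells, 10.4 and 7.09 in Lgr5 Epcam+ cells, 6.91 in K14 Epcam+ cells, 6.32 in HF and 10.6 in IFE, and no comparison passed. Over all genes with a start peak, the median was 19.2, 32.9, 23.8, 19.3, 9.78 and 14.9 in the same order. By scaled count the H2-Aa start peak had 7.09, 6.45, 4.99, 5.93, 8.47 and 11.5 CPM in that order. Every Epcam+ tumour lay below both normal samples by scaled count (log2 ratio -0.78 ± 0.37 SE, edgeR adjusted p = 0.136). The upstream peak chr17:34291163-34292241 was lower in the tumours, with 4.53 in Lgr5 Epcam- cells, 2.75 and 2.80 in Lgr5 Epcam+ cells, 3.16 in K14 Epcam+ cells, 7.80 in HF and 7.18 in IFE. Epcam+ tumours were below normal epithelia by a log2 ratio of -2.10 ± 0.40 (SE, edgeR adjusted p = 0.00404), and this call held in each of 12 other settings. Another peak, chr17:34293097-34294097, was at 6.17 in K14 Epcam+ cells and between 1.76 and 2.48 in the others. The 250 bases before the start, on the minus strand at chr17:34287824-34288073, are shown as the promoter of the class II gene whose start was open; capitals mark the ATTGG of a Y box, which occurs once.
H2-Aa: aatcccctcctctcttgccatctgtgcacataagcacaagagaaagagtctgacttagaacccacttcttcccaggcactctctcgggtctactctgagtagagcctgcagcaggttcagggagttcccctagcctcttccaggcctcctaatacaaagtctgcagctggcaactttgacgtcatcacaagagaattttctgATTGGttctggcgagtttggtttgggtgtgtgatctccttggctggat

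Cd74, which works with H2-Aa in antigen presentation, was highest in HF by scaled count at each of its 3 peaks. The peak across the left end of its span, chr18:60803014-60804350, had 2.49 in Lgr5 Epcam- cells, 6.13 and 4.31 in Lgr5 Epcam+ cells, 4.38 in K14 Epcam+ cells, 3.52 in HF and 4.16 in IFE. The peak chr18:60792510-60793510, 10339 bp left of the span, was above 2-fold in HF alone, at 4.35, with 1.18 in Lgr5 Epcam- cells, 1.52 and 1.46 in Lgr5 Epcam+ cells, 1.66 in K14 Epcam+ cells and 1.80 in IFE. Its call of lower in Lgr5 Epcam+ tumours than in HF (log2 ratio -2.55 ± 0.70 SE, edgeR adjusted p = 0.0217) was lost when scaled to counts outside peaks (edgeR adjusted p = 0.0908). Against both normal epithelia its log2 ratio was -1.78 ± 0.53 (SE, edgeR adjusted p = 0.0263), and -0.79 without HF (edgeR adjusted p = 0.419).

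Itgam had its open peaks away from the start. The strongest, chr7:128088799-128089915 inside the gene, had 10.6 in Lgr5 Epcam- cells, 17.6 and 18 in Lgr5 Epcam+ cells, 13.2 in K14 Epcam+ cells, 1.93 in HF and 4.24 in IFE. Lgr5 Epcam+ tumours exceeded HF by a log2 ratio of 2.19 ± 0.61 (SE, edgeR adjusted p = 0.0238), and Epcam+ tumours exceeded normal epithelia by 1.64 ± 0.42 (SE, edgeR adjusted p = 0.0139; 0.0883 without HF and 0.0509 without Lgr5 Epcam+ sample 1). The peak 302 bp past its 3′ end, chr7:128118793-128119880, had 2.15 in Lgr5 Epcam- cells, 11.9 and 6.67 in Lgr5 Epcam+ cells, 10.3 in K14 Epcam+ cells, 1.27 in HF and 2.03 in IFE, with a log2 ratio of Epcam+ tumours over normal epithelia of 1.77 ± 0.43 (SE, edgeR adjusted p = 0.0115; 0.0658 without HF and 0.0503 without Lgr5 Epcam+ sample 1). The peak by the start, chr7:128062997-128063997, was at 3.86 in K14 Epcam+ cells and between 1.21 and 1.47 in the other sorts. IFE had its own high peak, chr7:128097386-128098787, at 9.10, where the tumours ranged from 3.11 to 4.95 and HF had 2.45.

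Cd3e gave differences in both directions between its peaks. The peak 4751 bp past its 3′ end, chr9:44992775-44993984, had 1.80 in Lgr5 Epcam- cells, 6.98 and 12.1 in Lgr5 Epcam+ cells, 4.07 in K14 Epcam+ cells, 1.29 in HF and 1.72 in IFE (Epcam+ tumours over normal epithelia, log2 ratio 1.55 ± 0.49 SE, edgeR adjusted p = 0.0334). The upstream peak chr9:45018536-45019694 had 3.45 in Lgr5 Epcam- cells, 10.3 and 7.15 in Lgr5 Epcam+ cells, 3.73 in K14 Epcam+ cells, 1.45 in HF and 1.05 in IFE (log2 ratio 1.62 ± 0.47 SE, edgeR adjusted p = 0.0242). Another peak, chr9:45013440-45014501, was called lower, with 1.57 in Lgr5 Epcam- cells, 2.76 and 1.31 in Lgr5 Epcam+ cells, 1.77 in K14 Epcam+ cells, 1.84 in HF and 4.92 in IFE (log2 ratio -1.55 ± 0.46 SE, edgeR adjusted p = 0.0261). Each of the 3 calls was lost without IFE and without Lgr5 Epcam+ sample 1, with edgeR adjusted p from 0.0611 to 0.286. The peak inside the gene did not exceed 3.60 in any sort.

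Cd207, which encodes langerin, lay below the median of all genes in every sort when summed over its peaks. That level was 3.58 in Lgr5 Epcam- cells and 5.56 and 5.57 in Lgr5 Epcam+ cells. It was 4.33 in K14 Epcam+ cells, 2.38 in HF and 3.31 in IFE. The median over the 10 members was 3.67, 5.35, 5.31, 5.15, 2.04 and 3.14 in the same order. The Cd207 peak inside the gene, chr6:83673117-83674123, had 3.21 in Lgr5 Epcam- cells and 4.02 and 3.54 in Lgr5 Epcam+ cells. It had 4.12 in K14 Epcam+ cells, 1.74 in HF and 2.81 in IFE. By scaled count the samples lay between 2.45 and 3.42 CPM and overlapped. The other peak, 15670 bp upstream, lies on the lncRNA Vax2os and was between 2.88 and 7.14. Neither passed any test, and the log2 ratio of Epcam+ tumours over normal epithelia for the gene was 0.07 ± 0.32 (SE, edgeR adjusted p = 0.904). The 250 bases before its start, on the minus strand at chr6:83677858-83678107, carry no peak and are shown because they hold the AP-1 letters TGANTCA (capitals), next to the start.
Cd207: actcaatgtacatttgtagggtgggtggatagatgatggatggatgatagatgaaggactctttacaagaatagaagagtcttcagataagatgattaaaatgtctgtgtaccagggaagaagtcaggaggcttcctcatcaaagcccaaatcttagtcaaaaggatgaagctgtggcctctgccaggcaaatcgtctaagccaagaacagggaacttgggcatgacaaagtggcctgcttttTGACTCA
Over the member promoters at hand (8 windows of 7 genes), TGANTCA was found in 2, ATTGG in 2 and GGAAGT, the letters of an ETS site, in 3. GAGGAAGT, the longer letters bound by PU.1 of myeloid cells, was in none, and in 2.23% of all promoters, while GGAAGT, whose letters GAGGAAGT contains, was in 20.4%. Tyrobp had a single peak, at chr7:30394238-30395238, which was at 4.85 in K14 Epcam+ cells, against 1.25 in Lgr5 Epcam- cells, 1.54 and 2.06 in Lgr5 Epcam+ cells, 1.24 in HF and 1.77 in IFE.

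**Figure D4:**
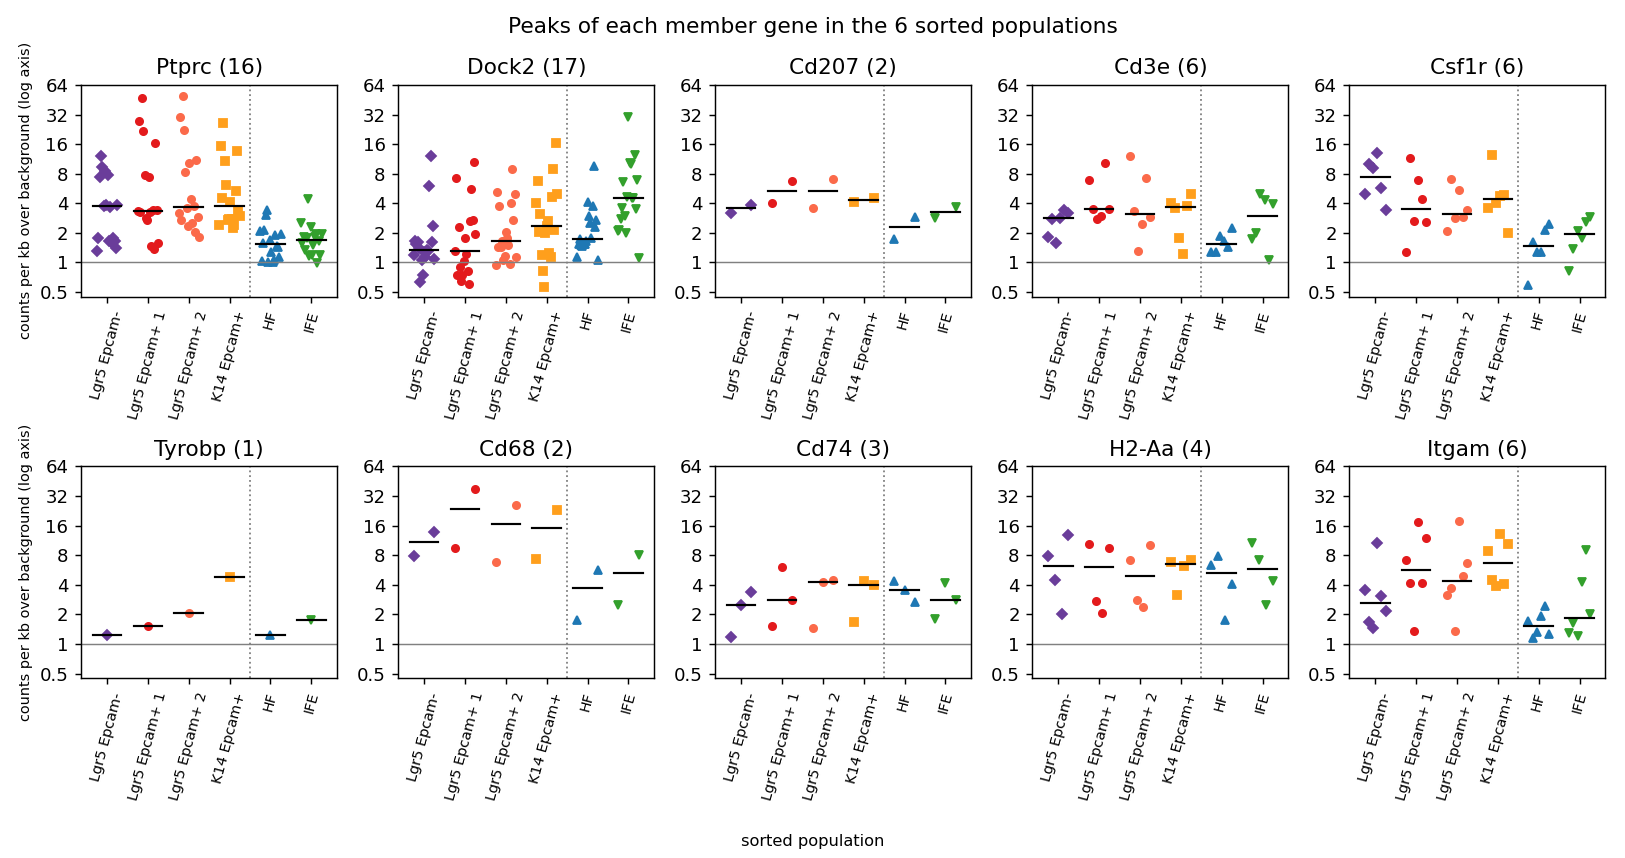
Level over background (log axis) of every peak of each member gene in the 6 samples, tumours left and normal epithelia right of the dotted line; points are peaks and black bars their medians. The medians of Cd68, Csf1r and Itgam are lower in HF and IFE than in every tumour sample, that of Dock2 is highest in IFE, and the H2-Aa and Cd207 points overlap across sorts. The median over all peaks was also lower in HF and IFE (2.01 and 2.49) than in every tumour sample (3.47 to 4.57).

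The 2 origins of tumour were compared directly. Lgr5 Epcam+ against K14 Epcam+ cells gave 0 called member peaks with edgeR and 0 with DESeq2, and 7 with an unadjusted p under 0.05 (11.1% of members, against 4.66% of all peaks); edgeR called 0.00113% of all peaks higher and 0.00395% lower. At all 7 the K14 Epcam+ sample was the highest of the 6. They are the Tyrobp peak, the Itgam start peak, the Ptprc peak chr1:138158336-138159336, the H2-Aa peak chr17:34293097-34294097 and the Dock2 peaks chr11:34227353-34228353, chr11:34770661-34771937 and chr11:34776393-34777393. Their log2 ratios ranged from -2.11 to -1.37 and their adjusted p was 0.871 or more (edgeR). K14 Epcam+ was 1 sample, and an interval for these ratios rests on the spread of the Lgr5 Epcam+ pair. The test of whether the change from the normal tissue differs between the 2 Cre lines gave 0 called member peaks with edgeR and 0 with DESeq2, and 5 with an unadjusted p under 0.05 (7.94% of members, against 6.19% of all peaks); edgeR called 0.000564% of all peaks higher and 0% lower. Scaled to counts outside peaks, neither this test nor Lgr5 Epcam+ against K14 Epcam+ called a member peak. K14 Epcam+ against IFE, 1 sample each, gave 6 member peaks higher by the rule of size, against 7.38% of all peaks, of which 4 were the Ptprc peaks outside the gene. The same rule between the 2 Lgr5 Epcam+ samples called no member peak, and 0.6% of all peaks higher in sample 1 and 1.03% lower. At the gene level, Lgr5 Epcam+ against K14 Epcam+ cells gave 0 called members with edgeR and 0 with DESeq2 (2 and 1 at an unadjusted p under 0.05), where edgeR called 0.00555% of genes higher and 0.00555% lower. For genes, the rule of size applied to Lgr5 Epcam+ sample 1 against sample 2 called no member, and 3.04% of genes higher and 2.22% lower.

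Peaks of other genes within 2 Mb of each member show how far its surroundings moved. Their median log2 ratio of Epcam+ tumours over normal epithelia was 0.18 around Ptprc (283 peaks) and -0.59 around Dock2 (405 peaks). Around the other members it lay between -0.45 (Cd3e, 550 peaks) and 0.27 (Cd207, 432 peaks). The part of the surroundings in the Dock2 result was not tested.

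The 7 further leukocyte lists also moved in both directions. Of their 63 genes with peaks, 14 rose and 8 fell in Epcam+ tumours against normal epithelia (22.2% and 12.7%, against 14.6% and 9.07% of all genes), and 7 rose and 1 fell in Lgr5 Epcam+ tumours against HF (11.1% and 1.59%, against 6.32% and 2.7%). These counts were made under TMM scaling alone. Of 8 endothelial genes, 4 rose in Epcam+ tumours against normal epithelia and none fell: Tie1, Cldn5, Cdh5 and Emcn, with log2 ratios from 0.92 to 1.69 and edgeR adjusted p from 0.00434 to 0.0263. The summed level of the 8 was 488 CPM in Lgr5 Epcam- cells, 790.4 and 541 CPM in Lgr5 Epcam+ cells, 635 CPM in K14 Epcam+ cells, 432 CPM in HF and 503 CPM in IFE. The summed level of the 63 genes had a median of 3.95 (range 0.74 to 26.7) in Lgr5 Epcam- cells, 6.65 (1.07 to 47.6) and 5.23 (0.91 to 44.9) in Lgr5 Epcam+ cells, 5.02 (1.13 to 28.2) in K14 Epcam+ cells, 2.39 (0.81 to 15.5) in HF and 3.36 (1.37 to 20.2) in IFE. The median over all genes with peaks was 6.397, 10.71, 8.505, 7.052, 3.639 and 5.135 in the same order. It was above the median of the 63 genes in every sort, and both medians were lower in HF and IFE than in every tumour sample. Cd14, a receptor for bacterial lipopolysaccharide on monocytes, gave 26.7 in Lgr5 Epcam- cells, 47.6 and 44.9 in Lgr5 Epcam+ cells, 28.2 in K14 Epcam+ cells, 6.94 in HF and 11.3 in IFE. Flt3, a cytokine receptor of dendritic cell precursors, gave 4.85 in Lgr5 Epcam- cells, 15.1 and 6.47 in Lgr5 Epcam+ cells, 9.06 in K14 Epcam+ cells, 1.36 in HF and 1.5 in IFE. Itgb2, the partner chain of Itgam, rose in Epcam+ tumours over normal epithelia by a log2 ratio of 1.10 ± 0.26 (SE, edgeR adjusted p = 0.00248). Of 12 T and NK genes, none rose there and 3, Cd3g, Cd28 and Bcl11b, fell. Of 12 macrophage and neutrophil genes, 6 rose in Epcam+ tumours over normal epithelia, Cd14 among them, and 1, Adgre1, fell. Adgre1, which encodes the macrophage protein F4/80, was highest in IFE, with 1.01 in Lgr5 Epcam- cells, 3.11 and 2.35 in Lgr5 Epcam+ cells, 2.50 in K14 Epcam+ cells, 2.46 in HF and 14.3 in IFE. The part of leukocytes or endothelial cells left in each sort was not tested.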

How the data were processed

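ATAC-seq counts per peak were deposited for 6 sorted samples as raw read counts, 12 tables in all, with a paired-end and a single-end run for each sample. Per the submitters' processing notes, Bowtie2, HOMER, bedtools and HTSeq were used with mm10; no version or setting is stated in the labels. Runs of a sample were summed on chromosomes 1 to 14, and the paired-end run alone was used on chromosomes 15 to X. CPM were computed from TMM-scaled counts in peaks of chromosomes 1 to 14. Peaks were assigned to the nearest protein-coding gene within 50 kb. Tests used glmQLFit (robust) and glmQLFTest of edgeR 4.0.16 in R 4.3.3, after filterByExpr (min.count 10), and Benjamini-Hochberg adjustment over all peaks or genes at 0.05. The 5-group fit has 1 residual degree of freedom, and the fit of Epcam+ tumours against normal epithelia 3. Comparisons of 1 sample with 1 have no test. There a peak was called at a log2 ratio of at least 2, with 1 or more in each run, and a gene at 1, with 0.5 or more in each run, the paired-end run alone deciding on chromosomes 15 to X; their 95% Clopper-Pearson intervals cover counting error only. The level over background divides counts per kb in a peak by counts per kb outside all peaks. The peak fit was run on simulated data for Lgr5 Epcam+ against HF alone, with less spread between samples than the real peaks had. The gene fits and the fit of Epcam+ tumours against normal epithelia were not run on simulated data. Named genes are all 10 members, their start, highest and called peaks, and up to 3 called genes per further list, plus fixed context genes. The members and lists were chosen with earlier results of these data known. DESeq2 1.42.0 and other settings served as alternatives. The genotype is given in part, and 1 further allele of the tumour mice is not reported here.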

Additional observations from a re-analysis of the deposited data

How the results depend on the processing

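None of the 45 called member results changed direction under any setting run on it. Some ratios that were not called changed sign when scaled to counts outside peaks: for Lgr5 Epcam+ against HF, -0.97 became 0.05 for Dock2, -0.85 became 0.16 for Cd74, -0.76 became 0.26 for H2-Aa and -0.47 became 0.54 for Tyrobp, and for Epcam+ tumours against normal epithelia, -0.52 became 0.22 for Cd74 and -0.64 became 0.09 for H2-Aa. Of the 45, 18 stayed past 0.05 in every setting in which they were tested; scaling to counts outside peaks, chosen after seeing the data, lost 13, leaving out Lgr5 Epcam+ sample 1 lost 14 and leaving out IFE lost 12. The causes were not tested. For Epcam+ tumours against normal epithelia, leaving out 1 sample gave 11 to 21 called member peaks and 26739 to 50125 called peaks in all. With total-count scaling, Lgr5 Epcam- against Lgr5 Epcam+ gave 8 called member peaks and 25684 of all peaks. DESeq2 gave 3 and 14762, and within 10 kb there were 3 called member peaks, against 21302 of all peaks. The single-end run alone called 1 member gene and 1433 of all genes. For Lgr5 Epcam+ against HF, total-count scaling called 2 member genes and 1844 of all genes, and the single-end run 4 and 2370. DESeq2 called 2 and 2358 there, and scaling to counts outside peaks 5 and 10706.

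Over the whole table, Lgr5 Epcam+ against K14 Epcam+ gave 49 peaks with total-count scaling, 15 with runs summed, 17 paired-end, 296 single-end, 41 with DESeq2 and 62 scaled outside peaks, and 5, 0, 2086, 14 and 20 genes with total-count scaling, paired-end, single-end, DESeq2 and outside scaling. The difference between tumour changes gave 38, 2, 2 and 16 peaks with total-count scaling, paired-end, DESeq2 and outside scaling, and 1, 4 and 10 genes with total-count scaling, DESeq2 and outside scaling. Outside scaling called 58283 peaks and 10706 genes for Lgr5 Epcam+ against HF, and 7958 genes for Epcam+ tumours against normal epithelia. The paired-end run called 1020 genes for Lgr5 Epcam+ against HF, and the single-end run 1653 for Epcam+ tumours. Lgr5 Epcam- against Lgr5 Epcam+ gave 324, 1433, 1242 and 1783 genes with paired-end, single-end, DESeq2 and outside scaling. A log2 limit of 1 called 31 member peaks of 71175 in all for K14 Epcam+ against IFE, 24 of 76940 for Lgr5 Epcam- against HF and 12 of 30460 for HF against IFE; a limit of 2 called 0 member genes in each, of 489, 482 and 51. With 80% of the genome taken as mappable, the median member level was 2.18 in Lgr5 Epcam- cells, 2.56 and 2.64 in Lgr5 Epcam+ cells, 3.19 in K14 Epcam+ cells, 1.36 in HF and 1.94 in IFE. No paired analysis was run. The replicate numbers come from the sample titles and name no animal, and the groups compared share fewer than 2 of them. Whether samples of different groups came from the same animal is not known from these numbers.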
